A study of Mus musculus with 42 samples.

Results

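The 8 genes described here, Thbd, Procr, Tfpi, Vwf, F3, Plat, Plau and Plaur, are the genes by which endothelial cells start, brake and dissolve a clot. They were taken by name as rows of the deposited table, 8 of the 21674 genes it lists, and were followed through all 42 libraries. Thrombin made on a vessel wall can clot fibrinogen, but when bound to thrombomodulin (Thbd) it activates protein C instead, which the endothelial protein C receptor (Procr) presents to it. Tissue factor (F3) starts the cascade together with factor VII, and tissue factor pathway inhibitor (Tfpi) blocks that step. Von Willebrand factor (Vwf) is stored in endothelial Weibel-Palade bodies and tethers platelets through GPIba, while tissue plasminogen activator (Plat), urokinase (Plau) and the urokinase receptor (Plaur) generate plasmin, which dissolves fibrin.

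The study tied off the left external and internal carotid and occipital arteries, which leaves low flow in the left common carotid, and took RNA from the intima by a Trizol flush of the lumen, in pools of 3 to 5 arteries. The untreated set was male C57BL/6J mice of 6 to 7 weeks at 48 hr, with 3 pools each of low flow, the contralateral high-flow artery and arteries dissected but not tied (sham). The treated set was of the same strain, sex, age and time, with 2 libraries a group. Its low-flow groups were given IgG, anti-GPIba (which removes platelets), anti-Gr1 (which removes neutrophils), PBS liposomes or clodronate liposomes (which remove phagocytes). Its high-flow groups were given IgG or PBS liposomes. The 7 d set was male and female mice of 2 to 7 months carrying Rosa26-mTmG and Rbfox2 lox/lox. Control mice had no Cre. EC-KO mice carried Cdh5(PAC)-CreERT2, which removes Rbfox2 where the endothelial Cdh5 promoter drives Cre. Each genotype had 3 low-flow and 2 high-flow libraries. The cultures, 1 library each, were primary aortic endothelial cells sorted for eGFP after 5 days, primary cells from Rbfox2 control and EC-KO mice after 7 days, and a single aortic endothelial line with inducible SV40 T antigen (switched off), left alone or given 10% plasma, platelets and bone-marrow macrophages for 48 hr. A PBS and a clodronate liposome library of 100 bp reads were also sequenced at low flow, from mice of 6 to 7 weeks at 48 hr.

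Endothelial identity held in the intimal libraries, where 11 endothelial markers (Pecam1, Cdh5, Tek and others) made up 0.466% to 1.42% of counts, and in the primary cultures, at 0.423% to 0.616%. In the cell line the same markers made up 0.042% to 0.0441%, Pecam1 lay at 53.1 to 82.9 FPKM against a lowest intimal value of 386, and Tek at 0.428 to 1.31 FPKM, so the line carried its endothelial label with little of the endothelial marker RNA. FPKM here is the count scaled to the gene's effective length in kilobases and to the library total. Klf2, a gene held up by laminar flow, lay at 0.539 to 4.09 FPKM in the untreated low-flow pools against 43.7 to 61.8 at high flow, which checks the flow labels. Rbfox2 lay at 2.74 to 5.73 FPKM in control and 0.169 to 1.09 FPKM in EC-KO libraries at 7 d. Total counts were 4064477 to 6794904 in the untreated set, 12286104 to 19035957 in the treated set, 10318685 to 18633538 at 7 d and 4989843 to 16394043 in the cultures, so the values of the scarce genes F3 and Plau are less precise in the untreated set. In a flush of mixed cells, fewer cells of a type and less RNA per cell cannot be told apart.

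In the mm9 genome, with GENCODE vM1 gene bounds, 3 members lie on chromosome 2: Thbd, a gene of 1 exon (chr2:148230207-148233924, minus strand), Procr (chr2:155576853-155581207, plus strand) and Tfpi (chr2:84273012-84316932, minus strand). Vwf spans chr6:125496792-125636697 on the plus strand, with up to 52 exons. F3 lies at chr3:121426455-121437970, Plaur at chr7:25247519-25260892, Plat at chr8:23868216-23893319 and Plau at chr14:21655884-21662610, each on the plus strand and protein coding. RefSeq promoters (GRCm38.p6, 250 bases before to 50 after a start site) were matched for 4 members, Procr, Tfpi, F3 and Plaur. Thbd, Vwf, Plat and Plau had no entry in the promoter set used. Those of Procr and Plaur are shown because both genes rose with low flow, and that of F3 because its level set the cell line apart from the intima. Each is on the plus strand and reads 5′ to 3′, at chr2:155750967-155751266, chr7:24462233-24462532 and chr3:121723287-121723586, with capitals marking CACCC, the core letters bound by KLF factors, and TGANTCA, the letters bound by AP-1, on either strand.
Procr: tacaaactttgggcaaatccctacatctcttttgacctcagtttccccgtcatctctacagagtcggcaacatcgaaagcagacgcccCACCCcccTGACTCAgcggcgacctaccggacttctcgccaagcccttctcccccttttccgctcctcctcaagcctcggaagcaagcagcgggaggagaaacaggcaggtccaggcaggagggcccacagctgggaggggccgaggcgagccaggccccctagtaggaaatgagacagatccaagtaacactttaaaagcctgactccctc
Plaur: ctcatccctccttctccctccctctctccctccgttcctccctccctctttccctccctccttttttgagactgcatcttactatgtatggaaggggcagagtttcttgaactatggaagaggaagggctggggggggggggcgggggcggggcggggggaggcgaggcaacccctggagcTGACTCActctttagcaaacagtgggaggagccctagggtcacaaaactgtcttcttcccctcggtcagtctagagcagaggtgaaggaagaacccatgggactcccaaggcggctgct
F3: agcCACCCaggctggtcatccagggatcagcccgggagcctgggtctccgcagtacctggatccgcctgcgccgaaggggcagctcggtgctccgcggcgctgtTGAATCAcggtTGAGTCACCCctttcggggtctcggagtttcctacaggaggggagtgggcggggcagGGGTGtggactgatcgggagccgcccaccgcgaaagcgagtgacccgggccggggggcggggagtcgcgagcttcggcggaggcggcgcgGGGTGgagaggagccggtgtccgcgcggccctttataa
TGANTCA occurred once in the Procr promoter, beginning 154 bases before the start site, and once in that of Plaur, 69 bases before it. F3 held it at 146 and 135 bases before the start site, the second copy overlapping a CACCC, and neither Tfpi promoter held it. Of 32851 promoters of this length, 7.81% held TGANTCA on either strand. CACCC was found in 57.5% of all promoters, once in Procr, 4 times in F3, once in each of the 2 Tfpi promoters and not in Plaur. NF-κB letters were searched on both strands, occurred in 8.46% of all promoters, and had no match in these 5 windows. A match of letters is a description of the sequence and not of binding.

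The first question was how low flow itself acts on these genes. In untreated mice at 48 hr the endothelial brake on thrombin split: thrombomodulin fell 3.1-fold while the protein C receptor rose 4.51-fold. Von Willebrand factor fell 2.91-fold. The urokinase receptor rose 5.5-fold and urokinase, at a low level, 9.98-fold, while tissue plasminogen activator and tissue factor did not pass the test. The sizes of these folds depend on the scaling between libraries, and values under another scaling are given below with Tfpi. All 8 members passed the filter on low counts, and 4 were called higher and 2 lower at an adjusted p under 0.05, against a background of 46.2% of the 11236 genes tested (23.6% higher and 22.6% lower), so a call as such was common in this comparison. The median log2 change of the members was 0.45 and that of all genes −0.07.

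**Figure D1:**
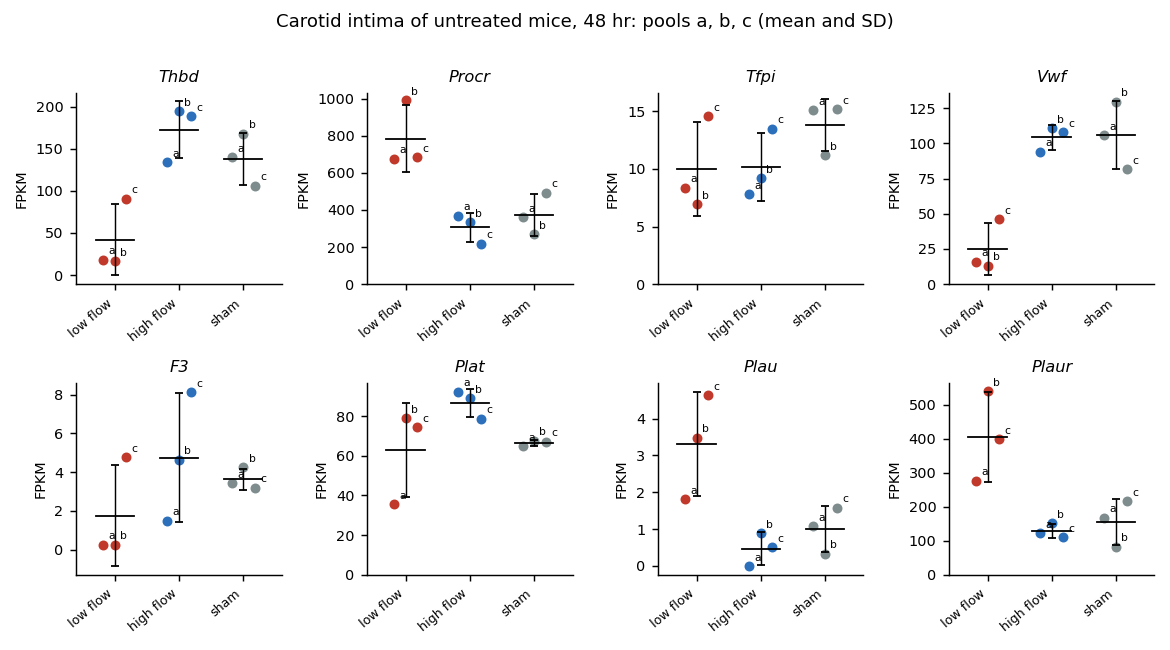
FPKM of the 8 members (vertical axes, from 0) in each pool of untreated mice at 48 hr for low flow, high flow and sham, with letters a, b and c naming the pools of each group separately, bars the mean and whiskers the SD. Low-flow pools lie below both other groups for Thbd and Vwf and above both for Procr, Plau and Plaur, and pool c has the highest low-flow Thbd (90.9), Vwf (46.1) and F3 (4.76).

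Thbd lay at 18.4, 16.7 and 90.9 FPKM in low-flow pools a, b and c, at 134, 195 and 189 FPKM at high flow, and at 140.3, 168 and 106 FPKM in sham. The letters a, b and c were given here within each group and pair no pools across groups. Each low-flow pool was below each pool of the other groups, though pool c came within reach of the lowest sham pool. The log2 change against high flow was −1.63 ± 0.38 (SE, n = 3 pools a group, adjusted p = 0.00547 by edgeR). The change relative to sham was −1.27 ± 0.39 (adjusted p = 0.0318). The sham call was lost without sham pool a (adjusted p = 0.0819), sham pool b (0.081), low-flow pool a (0.115) or low-flow pool b (0.112).

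Procr, the receptor that hands protein C to thrombomodulin, moved the other way. It lay at 676, 994 and 685 FPKM at low flow, at 369.8, 333 and 218 FPKM at high flow and at 361, 269 and 493 FPKM in sham. The low-flow pools did not overlap either group. The log2 change was 2.17 ± 0.44 (adjusted p = 0.00243) against high flow and 1.93 ± 0.46 (adjusted p = 0.0124) against sham; without sham pool a or b the latter had an adjusted p of 0.0593 or 0.0518.

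Tfpi was a low and nearly even transcript, at 8.38, 6.95 and 14.6 FPKM at low flow, 7.81, 9.19 and 13.5 FPKM at high flow and 15.1, 11.2 and 15.2 FPKM in sham. The groups overlapped. The fitted log2 change against high flow, 0.62 ± 0.22 (adjusted p = 0.0394), rests on the scaling between libraries, being −0.03 (adjusted p = 0.965) with library totals in place of TMM factors, and the call was lost without low-flow pool a, b or c or high-flow pool a or b (adjusted p from 0.0577 to 0.141). With library totals the median log2 change of all genes went from −0.07 to −0.69, and the share of calls that were higher went from 51% to 25.3%. Under totals Thbd (−2.04), Vwf (−2.06), Procr (1.35), Plau (2.71) and Plaur (1.66) kept their directions and calls. Tfpi against sham was 0.21 ± 0.19 (adjusted p = 0.404), and −0.47 (adjusted p = 0.464) under totals.

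Vwf lay at 15.9, 13 and 46.1 FPKM at low flow, at 94.0, 111 and 108 FPKM at high flow and at 106, 129.8 and 81.7 FPKM in sham, again with no overlap and with pool c the highest of the low-flow pools. The log2 change was −1.54 ± 0.29 (adjusted p = 0.00153) against high flow and −1.52 ± 0.30 (adjusted p = 0.00648) against sham. Platelet markers, whose RNA could also carry Vwf, made up 0.00179% to 0.00571% of low-flow and 0.0036% to 0.0074% of high-flow counts. Of 6 tested Gp1ba was called lower, with library totals Ppbp too, and none of 9 was at 0 in all pools. Their part in the result was not tested.

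F3, the start of the cascade, was barely present in the intima. Low-flow pools a and b held 3 and 2 counts (0.255 and 0.26 FPKM) and pool c 47 (4.76 FPKM), against 1.49, 4.64 and 8.14 FPKM at high flow and 3.42, 4.26 and 3.19 FPKM in sham. Pools a and b sat below every other pool and pool c among them. The log2 change was −0.99 ± 0.71 against high flow (adjusted p = 0.275) and −0.56 ± 0.65 against sham (adjusted p = 0.505). With library totals the change against high flow was −1.42 (adjusted p = 0.0455). Without pool c the TMM values were −3.11 (adjusted p = 0.011) and −2.67 (adjusted p = 0.00372). Pool c also held more fibroblast marker RNA (7 genes, 0.0412% of counts against 0.00646% and 0.00685% in pools a and b, and 0.0465% to 0.0905% at high flow); whether that bears on F3 was not tested.

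Plat, the endothelial plasminogen activator released into blood, was well expressed, at 35.7, 79.0 and 74.5 FPKM at low flow, 92.3, 89.0 and 78.8 FPKM at high flow and 64.8, 67.6 and 67.2 FPKM in sham. The range of the low-flow pools overlapped both other groups. Its log2 change was 0.27 ± 0.31 against high flow (95% interval −0.42 to 0.97, adjusted p = 0.5) and 0.70 ± 0.32 against sham (adjusted p = 0.109; 0.90 and 0.0497 without low-flow pool c). The first was −0.46 with library totals, also outside the threshold.

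Plau, the activator that acts at the cell surface, gave 27, 34 and 58 counts at low flow (1.81, 3.48 and 4.63 FPKM), 0, 12 and 5 counts at high flow (up to 0.896 FPKM) and 10, 3 and 17 counts in sham (0.336 to 1.58 FPKM). Low-flow pools were the highest. The log2 change was 3.32 ± 0.57 (adjusted p = 8.91e-04) against high flow and 2.34 ± 0.47 (adjusted p = 0.0069) against sham. Its receptor Plaur was far more abundant, at 276, 539.8 and 398 FPKM at low flow, 122, 151 and 110.2 FPKM at high flow and 167, 81.7 and 216 FPKM in sham, with no overlap. The log2 change was 2.46 ± 0.39 (adjusted p = 4.77e-04) and 2.21 ± 0.48 (adjusted p = 0.00922).

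RNA of other cells moved with the same groups. Of the macrophage markers tested, 10 of 11 were called higher at low flow than at high flow, their sum going from 0.00678% to 0.0165% of counts at high flow to 0.214% to 0.332%, and of the neutrophil markers 6 of 6 (0.0247% to 0.0487% against 7.49e-04% to 0.00241%; Mpo was at 0 in all low-flow pools). Smooth muscle markers went from 0.0529% to 0.0622% to 0.233% to 0.431%, with Acta2, Tagln and Smtn called of 6 tested. Most of that rise lay in Acta2 (3.62 ± 0.40) and Tagln (2.48 ± 0.30), while Myh11 was −1.13 ± 0.50 (adjusted p = 0.086), Cnn1 −0.13 ± 0.40 and Actg2 −0.12 ± 0.36. Plau and Plaur are also made by leukocytes, and the part of these cells in their rise was not tested in this set. Fat cell markers moved the other way, with 6 of 6 tested called lower at low flow (0.00395% to 0.00761% of counts against 0.0307% to 0.298% at high flow and 0.00335% to 0.0286% in sham). Fibroblast markers did so as well, with 3 of 7 called lower (Pi16, Dpt and Col1a2). Of red blood cell markers Hba-a1 (−1.31) and Alas2 (−2.04) were called lower and Hbb-b1 (0.20) was not called. The part of these cells in the lower Thbd and Vwf was not tested. Endothelial markers were 0.974% to 1.12% of counts at high flow and 0.48% to 0.607% at low flow, with 3 of 11 called higher (Kdr, Emcn, Robo4) and 2 lower (Tek, Icam2). With library totals Robo4, Smtn and C1qa lost their calls. Pecam1, Myh11, the fibroblast markers Dcn (−1.88) and Pdgfra (−1.64) and the platelet marker Ppbp (−1.34) were then called lower.

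Against sham, 3 members were higher (Procr, Plau and Plaur) and 2 lower (Thbd and Vwf) at low flow, over a background of 40.3% of 11164 genes (20.6% higher and 19.7% lower). Of all calls 51.2% were higher, and 19.1% with library totals. Without 1 pool between 3 and 7 members were called, 3 without sham pool a or b and 7 without low-flow pool c.

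High flow against sham gave 0 of the 7 members tested a call, against 0% of 11030 genes by edgeR (868 genes and 1 member, Plat, at an unadjusted p under 0.05; DESeq2 called 91 genes and 0 members), and the 5 pathway lists held 0 calls. Plau did not pass the filter. Plat was 0.44 ± 0.16 higher on the log2 scale (adjusted p = 0.489 by edgeR, 95% interval 0.08 to 0.79), its high-flow pools at 78.8 to 92.3 FPKM all above its sham pools at 64.8 to 67.6.

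The rest of the pathway was read from 5 lists. In the plasminogen list Anxa2, a plasmin assembly site, rose by 1.40 ± 0.50 on the log2 scale at low flow against high flow. Of 7 anticoagulant genes 3 fell and 0 rose: Hs3st1, which makes the antithrombin-binding heparan sulfate (−1.40 ± 0.28), Entpd1, which clears ADP (−0.88 ± 0.20), and Pros1, protein S (−0.85 ± 0.23). Serpine2 was −0.15 ± 0.42 (adjusted p = 0.791). Of 8 coagulation factor genes 2 rose, F10 (5.27 ± 0.57) and F13a1 (2.60 ± 0.39), both also made by monocytes and macrophages, and Mcfd2 fell (−0.69 ± 0.25). Of 3 thrombin and protease receptors F2rl3 rose (3.24 ± 0.68), F2rl1 fell (−1.45 ± 0.38), and F2r was −0.16 ± 0.22 (adjusted p = 0.581). Among the genes of Weibel-Palade bodies and von Willebrand factor partners 4 of 8 fell, led by Mmrn2 (−1.58 ± 0.27), Rab27a (−1.52 ± 0.20) and Rab3d (−1.05 ± 0.19), the latter 2 guiding the release of the bodies that hold Vwf, and 3 rose, Thbs1 (3.12 ± 0.41), Cd63 (2.00 ± 0.46) and Selp (1.04 ± 0.32). The medians of these last 4 lists were −0.64, −0.07, −0.16 and −0.78, in the order named, beside −0.07 for all genes. With library totals, where the median of all genes was −0.69, the calls of Anxa2 (0.55, adjusted p = 0.0825) and Selp (0.27, 0.498) were lost, Nt5e (−1.27) and S100a10 (−1.07) were called lower, Cd63 was 1.15, Mcfd2 −1.33, Pros1 −1.47 and Entpd1 −1.54, each still called, and F2r was −0.78 (0.0679). Against sham the 4 lists gave 0 higher and 2 lower of 7 for the anticoagulant genes (Hs3st1 and Pros1), 2 and 0 of 8 for the coagulation factors (F10 and F13a1), 0 and 1 of 2 for the receptors (F2rl1), and 3 and 4 of 8 for the Weibel-Palade list. With library totals the Selp call against sham was lost (0.14, adjusted p = 0.772), and Mcfd2 (−1.02) and Nt5e (−1.44) were called lower.

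The treated sets repeated the flow comparison in other animals, though their low-flow and high-flow libraries came from different sequencing runs, so flow and run cannot be told apart there. After IgG, 2 members were higher and 2 lower (background 40.5% of 13401 genes, 22.8% higher and 17.7% lower), and after PBS liposomes 2 higher and 1 lower (background 35% of 13401, 19.6% higher and 15.5% lower). Thbd was 76.9 and 36.0 FPKM at low flow against 218 and 266 FPKM at high flow after IgG, and 53.7 and 20.7 against 216 and 116 FPKM after PBS liposomes. It fell by 2.19 ± 0.62 (adjusted p = 0.017) and 2.05 ± 0.62 (adjusted p = 0.0253) on the log2 scale. Procr was 1028 and 841 FPKM against 181 and 188 FPKM after IgG, and 1190.4 and 1388 against 238 and 385 FPKM after PBS liposomes. It rose by 2.25 ± 0.54 (adjusted p = 0.00778) and 2.16 ± 0.53 (adjusted p = 0.0102). Plaur rose as well, by 2.20 ± 0.66 (adjusted p = 0.0215) and 1.87 ± 0.65 (adjusted p = 0.0448), from 61.1 and 96.3 to 328 and 440.4 FPKM after IgG and from 60.2 and 172 to 382 and 398 FPKM after PBS liposomes. In both sets the low-flow and high-flow values of Thbd, Procr and Plaur did not overlap, and the share of all genes without overlap was not computed. Leukocyte markers moved with flow here too. Macrophage markers were 0.223% to 0.242% of counts at low flow against 0.00755% to 0.0276% at high flow after IgG (11 of 12 called higher), and 0.133% to 0.221% against 0.0114% to 0.0211% after PBS liposomes (8 of 12). Neutrophil markers were 0.0117% to 0.0343% against 8.06e-04% to 0.00636% (5 of 10 called higher) and 0.0101% to 0.0298% against 6.18e-04% to 0.00212% (6 of 10), and their part in the Plaur and Plau values was not tested.

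Vwf separated the 2 control treatments at high flow. It lay at 526 and 519 FPKM at high flow after IgG and at 187 and 97.4 FPKM after PBS liposomes, while the low-flow values were 127 and 69.8 FPKM and 83.1 and 47.2 FPKM. The log2 change with low flow was −2.50 ± 0.50 (adjusted p = 0.00375) after IgG and −1.02 ± 0.48 (adjusted p = 0.119) after PBS liposomes; the difference of these changes was not tested. Plau was 2.95 ± 1.57 higher (adjusted p = 0.15) and 4.54 ± 1.68 higher (adjusted p = 0.0548), with 90 and 133 counts at low flow against 0 and 20 after IgG, and 105 and 277 against 0 and 14 after PBS liposomes. Tfpi (0.66 ± 0.26, adjusted p = 0.0668, and 0.56 ± 0.26, adjusted p = 0.119), Plat (0.06 ± 0.32 and −0.07 ± 0.32) and F3 (1.23 ± 1.31 and 0.01 ± 1.29) were not called. F3 had 0 counts in one high-flow IgG library and 67 in the other. Without 1 library the members called ranged from 2 to 5 after IgG and from 0 to 4 after PBS liposomes. After IgG the Plaur call was lost without high-flow library 1 (adjusted p = 0.131) or 2 (0.0569) or low-flow library 2 (0.101), the Thbd call without high-flow library 2 (0.0654) or low-flow library 2 (0.14), and the Procr call without high-flow library 1 (0.054), while F3 passed without high-flow library 2 (0.024), against a remaining library with 0 counts, and Tfpi without low-flow library 1 (0.04) or with library totals (0.044). After PBS liposomes the calls of all 3 were lost without high-flow library 1 (0.102 to 0.268), those of Thbd and Plaur without low-flow library 2 (0.178 and 0.128) and that of Plaur without low-flow library 1 (0.106), while Plau passed without high-flow library 2 (0.0432), again against a library with 0 counts.

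**Figure D2:**
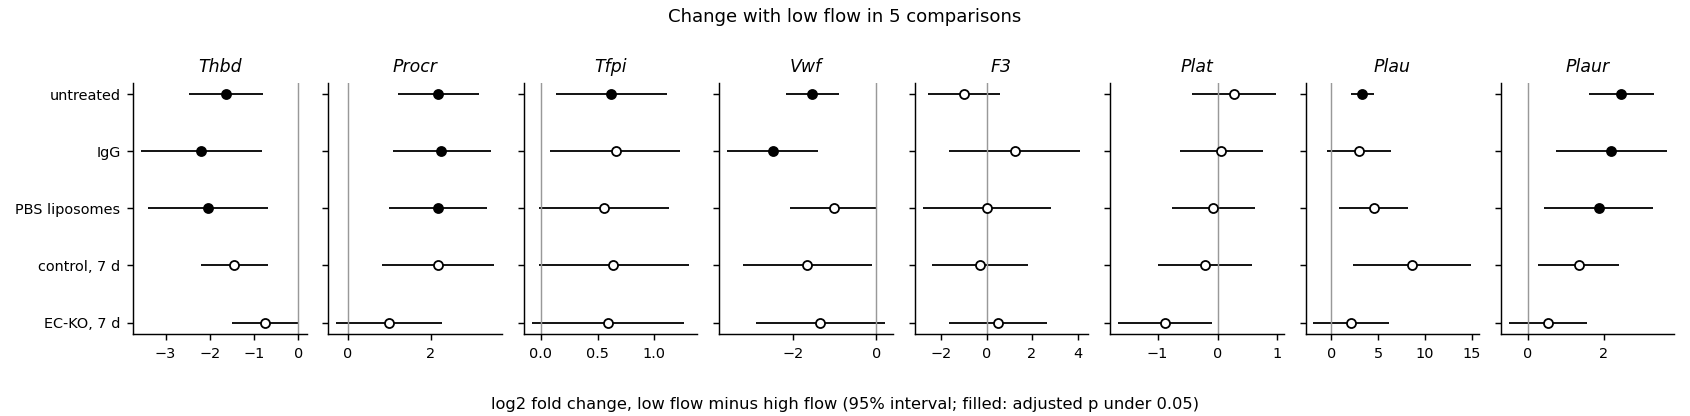
Fitted log2 fold change of each member, low flow minus high flow (horizontal axes, each gene on its own scale), in 5 comparisons, with 95% intervals and filled points for an adjusted p under 0.05. Thbd and Vwf lie left of 0 and Procr, Plau and Plaur right of 0 in each row, Tfpi lies right of 0 in each with TMM scaling but at −0.03 in untreated mice with library totals, and the Plau value of control mice at 7 d is set against libraries with 0 counts.

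In these sets the partners moved as follows. Pros1 fell by 0.90 ± 0.20 (adjusted p = 0.00541) and 1.2 ± 0.20 (adjusted p = 0.00159), and F2r was −0.52 ± 0.21 (adjusted p = 0.0638) and −0.76 ± 0.21 (adjusted p = 0.0152) after IgG and PBS liposomes. Serpine2 was −0.25 ± 0.58 and −1.39 ± 0.58, without a call. In the list of anticoagulant genes 3 and 4 of 7 fell and 1 rose (Anxa5, 0.53 ± 0.19 and 0.63 ± 0.19, the latter 0.51 with library totals and an adjusted p of 0.0567), with Entpd1 (−1.70 ± 0.22 and −1.59 ± 0.22), the ecto-enzyme Nt5e (−0.96 ± 0.23 and −1.51 ± 0.23) and Pros1 in both. Of the Weibel-Palade list 4 and 5 of 9 fell and 2 rose, Rab27a (−2.32 ± 0.37 and −2.15 ± 0.37) and Mmrn2 (−1.85 ± 0.35 and −2.17 ± 0.35) among the 3 that fell most in each set, and Rab3d after PBS liposomes (−1.72 ± 0.26). Of the coagulation factors 3 of 9 rose in each set (F7, F10 and Vkorc1) and 3 and 2 fell, and of the receptors 0 rose and 1 and 2 of 4 fell.

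The next question was whether blood cells bear on the response at low flow. The anti-GPIba and anti-Gr1 comparisons share their IgG libraries with each other and with the IgG flow comparison. With platelets removed, 2 members fell against IgG, Procr and Plaur, and 0 rose (background 16.5% of 13401 genes, 10.5% lower and 6.05% higher). Procr lay at 291 and 265 FPKM after anti-GPIba against 1028 and 841 FPKM after IgG, a log2 change of −1.78 ± 0.53 (n = 2 libraries a group, adjusted p = 0.043 by edgeR). Plaur lay at 89.9 and 85.6 FPKM against 328 and 440.4 FPKM, a change of −2.16 ± 0.66 (adjusted p = 0.0461). For both genes the anti-GPIba libraries stood nearer the high-flow IgG libraries (181 and 188, and 61.1 and 96.3 FPKM) than the low-flow ones. Neither call survived the loss of any 1 of the 4 libraries (adjusted p from 0.0766 to 0.237).

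Plau gave 3 and 0 counts after anti-GPIba and 90 and 133 after IgG, a ratio of pooled rates of 74.8 (95% exact interval 25.3 to 365, which covers counting error only). The fitted log2 change of −6.11 ± 1.94 had an adjusted p of 0.0521. Vwf lay higher, at 248 and 267 FPKM against 127 and 69.8 FPKM (1.36 ± 0.48, adjusted p = 0.0687), and below the 526 and 519 FPKM of high flow. Both genes passed the threshold in DESeq2 (adjusted p = 0.0133 for Vwf and 0.0239 for Plau), without the low-count filter and with the 2 groups alone. Thbd was 95.5 and 86.4 FPKM against 76.9 and 36.0 FPKM (0.66 ± 0.60, adjusted p = 0.441). Tfpi (−0.41 ± 0.26), Plat (−0.26 ± 0.32) and F3 (−0.20 ± 1.27) were not called.

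Among the partners Pros1 rose by 0.66 ± 0.20 (adjusted p = 0.0435) and the thrombin receptor F2r by 0.87 ± 0.21 (adjusted p = 0.0285), while Serpine2 was 0.69 ± 0.57 (adjusted p = 0.4). Of the plasminogen list Anxa2 and Serpinb2 fell, of the anticoagulant list 3 of 7 rose (Hs3st1 1.30 ± 0.34, Nt5e 0.89 ± 0.23 and Pros1), of the Weibel-Palade list 3 of 9 rose (Rab27a 1.37 ± 0.36, Mmrn2 1.33 ± 0.34 and Rab3d 1.00 ± 0.26), of 9 coagulation factors F8 rose (1.48 ± 0.37) and F10 fell, and of 4 receptors F2r rose. Macrophage markers went from 0.223% to 0.242% of counts after IgG to 0.0223% to 0.0319% after anti-GPIba (7 of 12 called lower), neutrophil markers from 0.0117% to 0.0343% to 7.87e-04% to 0.00148% (5 of 10), smooth muscle markers from 0.437% to 0.472% to 0.0724% to 0.102% (2 of 7), and endothelial markers from 0.503% to 0.579% to 0.963% to 0.982% (Pecam1 and Tek higher). Platelet markers were 0.00247% to 0.00297% of counts after anti-GPIba and 0.0034% to 0.00399% after IgG, with Gp1ba higher and Ppbp lower of 8 tested. Their part in these changes was not tested.

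**Figure D3:**
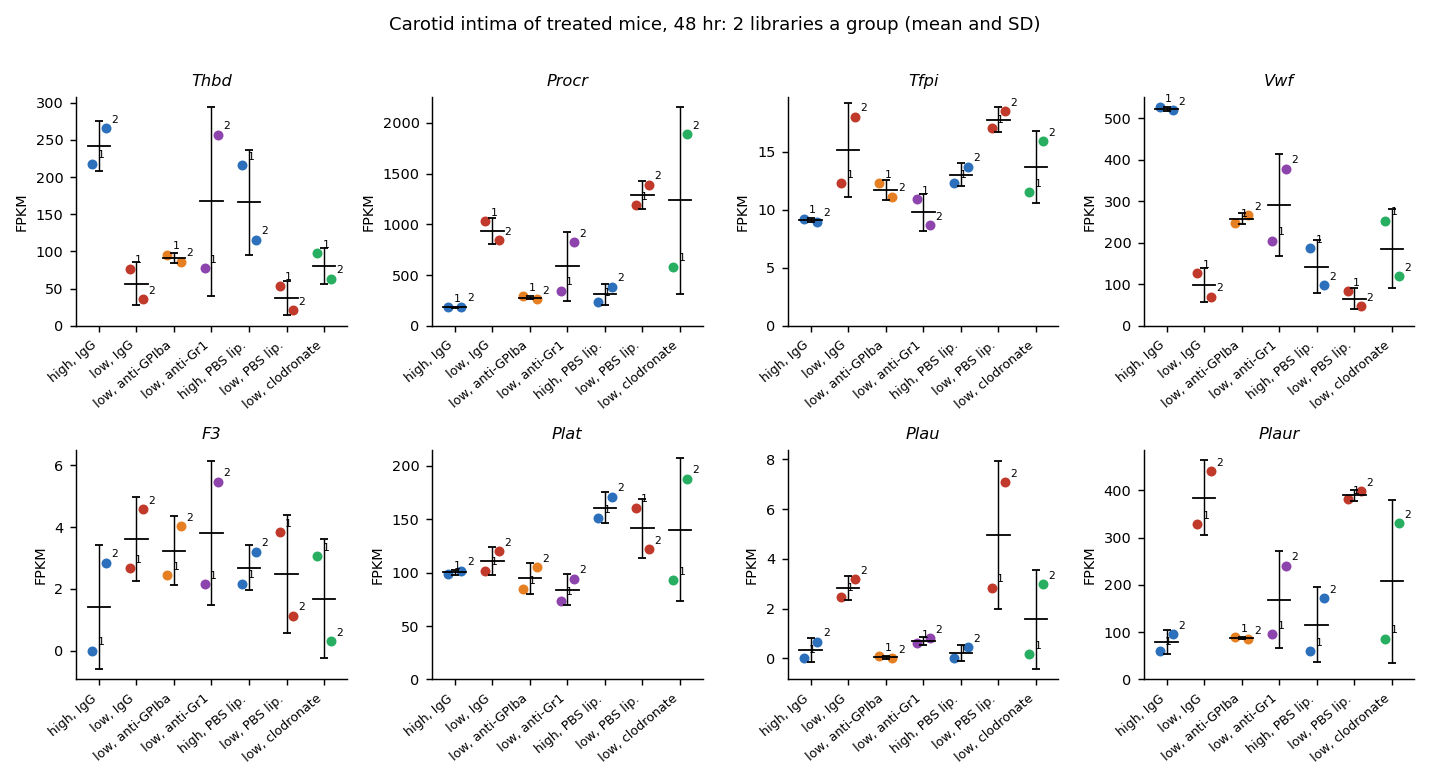
FPKM of the 8 members (vertical axes) in each library of treated mice at 48 hr, numbered, with mean and SD. After anti-GPIba Procr (265 and 291) and Plaur (85.6 and 89.9) lie below both low-flow IgG libraries, and the 2 libraries of the anti-Gr1 and clodronate groups lie far apart for Procr and Plaur.

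With neutrophils or phagocytes removed no member was called, and within these groups the 2 libraries disagreed. After anti-Gr1, 0 of 8 members and 0% of 13401 genes were called by edgeR (2432 genes and 3 members at an unadjusted p under 0.05; DESeq2 called 171 genes and 1 member, Vwf, adjusted p = 0.0423). Thbd lay at 77.3 and 257 FPKM in anti-Gr1 libraries 1 and 2, Procr at 346 and 825, Vwf at 205 and 378, and Plaur at 95.7 and 241 FPKM. Library 2 was the higher for all 4, although Thbd and Vwf move against Procr and Plaur with flow. The log2 changes were 1.62 ± 0.61 for Thbd (adjusted p = 0.245), 1.60 ± 0.49 for Vwf (0.243), −0.64 ± 0.51 for Procr (0.509) and −1.16 ± 0.64 for Plaur (0.345). The 5 lists held 0 calls. Macrophage markers were 0.126% to 0.131% of counts and neutrophil markers 0.00168% to 0.00307%, against 0.0117% to 0.0343% after IgG; their part in these values was not tested.

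Clodronate against PBS liposomes gave 0 members (background 0.119% of 13401 genes; 2002 genes and 1 member at an unadjusted p under 0.05; DESeq2 called 462 genes and 1 member, Vwf, adjusted p = 0.0499). Clodronate library 1 lay at 582 FPKM for Procr, 85.8 for Plaur, 253 for Vwf and 0.152 for Plau, and library 2 at 1888, 330.2, 119 and 2.98 FPKM. PBS liposome libraries lay at 1190.4 and 1388, 382 and 398, 83.1 and 47.2, and 2.84 and 7.07 FPKM. Library 1 thus had the lower Procr, Plaur and Plau and the higher Vwf, and library 2 sat near or beyond the PBS values. Macrophage markers were alike in the 2 clodronate libraries (0.0242% and 0.0236% of counts, against 0.133% to 0.221% after PBS liposomes), and so were neutrophil markers (0.00286% and 0.00341%, against 0.0101% to 0.0298%), while Plaur was 85.8 and 330.2 FPKM in them. The part of either cell type in Plaur was not tested. Vwf changed by 1.40 ± 0.48 (adjusted p = 0.259), Plaur by −1.0 ± 0.64 (0.467), Thbd by 0.99 ± 0.60 (0.446) and Procr by −0.15 ± 0.51 (0.913). In the 100 bp libraries, 1 a group, Vwf was 108 against 47.9 FPKM, Thbd 81.7 against 44.3, Plau 3.7 against 7.84, Plaur 427 against 495 and Procr 1239.7 against 963 FPKM. With these added and read length as a block, Vwf was 1.41 (adjusted p = 0.153). The 5 lists held 0 calls.

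At 7 d the study asked what low flow does with and without endothelial Rbfox2. In control mice 0 members passed the threshold with all libraries (background 2.4% of 13352 genes, 0.959% higher and 1.44% lower; 5 members at an unadjusted p under 0.05, and 4 called by DESeq2). Of all calls 40% were higher, 67.1% with DESeq2 and 55% without the filter. With the library number as a block, 2940 genes and 5 members were called: Thbd (−1.71, adjusted p = 0.00551), Procr (2.31, 0.00876), Vwf (−2.71, 0.00814), Plau (0.0421) and Plaur (1.5, 0.0085); whether equal numbers mark arteries of the same mice is not given in the sources used here. The changes had the directions seen at 48 hr. Thbd was −1.45 ± 0.34 (adjusted p = 0.0522), at 104, 47.5 and 72.8 FPKM in low-flow libraries 1, 4 and 5 against 183 and 199.6 FPKM at high flow. Procr was 2.17 ± 0.60 (adjusted p = 0.0704), at 328, 1337 and 1489 FPKM against 225 and 220.2 FPKM, and Vwf −1.66 ± 0.70 (adjusted p = 0.176), at 385, 51.8 and 69.6 FPKM against 467 and 520.0 FPKM.

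Low-flow control library 1 stood between the other low-flow libraries and high flow for all 3, and for Plaur, at 73.3 FPKM beside 258 and 162 FPKM at low flow and 68.8 and 54.5 FPKM at high flow (1.34 ± 0.48, adjusted p = 0.122). Plau gave 5, 106 and 23 counts at low flow and 0 in both high-flow libraries, at least 14.5-fold higher in mean FPKM against a floor of 3 counts a library (adjusted p = 0.102). Low-flow control libraries 1, 4 and 5 each came from a different run, and only library 4 shared the run of the high-flow libraries. Of the low-flow EC-KO libraries only library 5 shared it. Fits without library 1 thus still mixed runs. In library 1 endothelial markers made up 0.868% of counts (0.538% and 0.57% in libraries 4 and 5) and fibroblast markers 0.108% (0.0492% and 0.0449%). Red cell markers made up 0.0648% (0.013% and 0.0056%) and macrophage markers 0.0424% (0.171% and 0.0327%). Without library 1, 5 members were called: Thbd (−1.73, adjusted p = 0.00424), Procr (2.60, 9.57e-04), Vwf (−3.09, 4.42e-04), Plau (0.0283) and Plaur (1.70, 0.00532). Calls among all genes moved too, from 320 with all libraries to between 3 and 3897 with 1 library left out. The 2.4% of the full fit is thus not a background for these 5 calls. Low-flow EC-KO library 1 came from the same run as control library 1. It was the highest of its group for Thbd (129 beside 105 and 67.2 FPKM), Vwf (282 beside 243 and 149.7) and Plat (146 beside 88.5 and 89.5). It lay between the others for Procr (408 beside 334 and 684) and was the lowest for Plaur (131 beside 231 and 137). At high flow macrophage markers were 0.00488% to 0.0135% of counts in control mice, with Cd68 the only marker of 12 called higher at low flow. Neutrophil markers were 9.69e-04% to 0.00207% (0 of 8 called) against 0.00236%, 0.0315% and 0.00212% in low-flow libraries 1, 4 and 5. Of endothelial markers Tek (−1.60), Icam2 (−2.06) and Egfl7 (−0.98, lost with library totals) were called lower and Emcn (1.44) higher. The smooth muscle marker Acta2 (2.55) was called higher. The part of the run and of these cells in the values, those of Plau and Plaur included, was not tested.

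In EC-KO mice low flow gave 0 members a call (background 1.09% of 13352 genes, 0.352% higher and 0.741% lower; 1 member at an unadjusted p under 0.05; DESeq2 0). Of all calls 32.2% were higher, and 53.5% with DESeq2. Thbd was −0.75 ± 0.34 (adjusted p = 0.327), at 129, 105 and 67.2 against 173 and 163 FPKM, Procr 1.00 ± 0.57 (0.427), at 408, 334 and 684 against 188 and 279.7 FPKM, Vwf −1.35 ± 0.70 (0.382), at 282, 243 and 149.7 against 596 and 546 FPKM, and Plaur 0.53 ± 0.46 (0.615), at 131, 231 and 137 against 129 and 101 FPKM. Low and high flow did not overlap for these 4 genes, for Plaur only by 131 against 129 FPKM. The share of all genes without overlap was not computed. Macrophage markers were 0.1% to 0.182% of counts at low flow and 0.00842% to 0.0105% at high flow (0 of 12 called). Neutrophil markers were 8.00e-04% to 0.00332% and 3.06e-04% to 8.10e-04% (0 of 8 called). Of endothelial markers Tek (−1.08) and Icam2 (−1.91) were called lower and Emcn (1.39) higher. The smooth muscle marker Acta2 (2.85) and the fibroblast marker Lum (5.05) were called higher. The part of these cells was not tested. Plat was −0.88 ± 0.35 (adjusted p = 0.263), at 146, 88.5 and 89.5 against 173 and 221 FPKM. With the library number as a block, 1317 genes and 1 member, Vwf (−1.85, adjusted p = 0.0356), were called. With libraries 4 and 5 alone, an alternative chosen after seeing the data, Vwf was −1.54 (adjusted p = 0.0199) and Plat −1.16 (adjusted p = 0.0469).

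**Figure D4:**
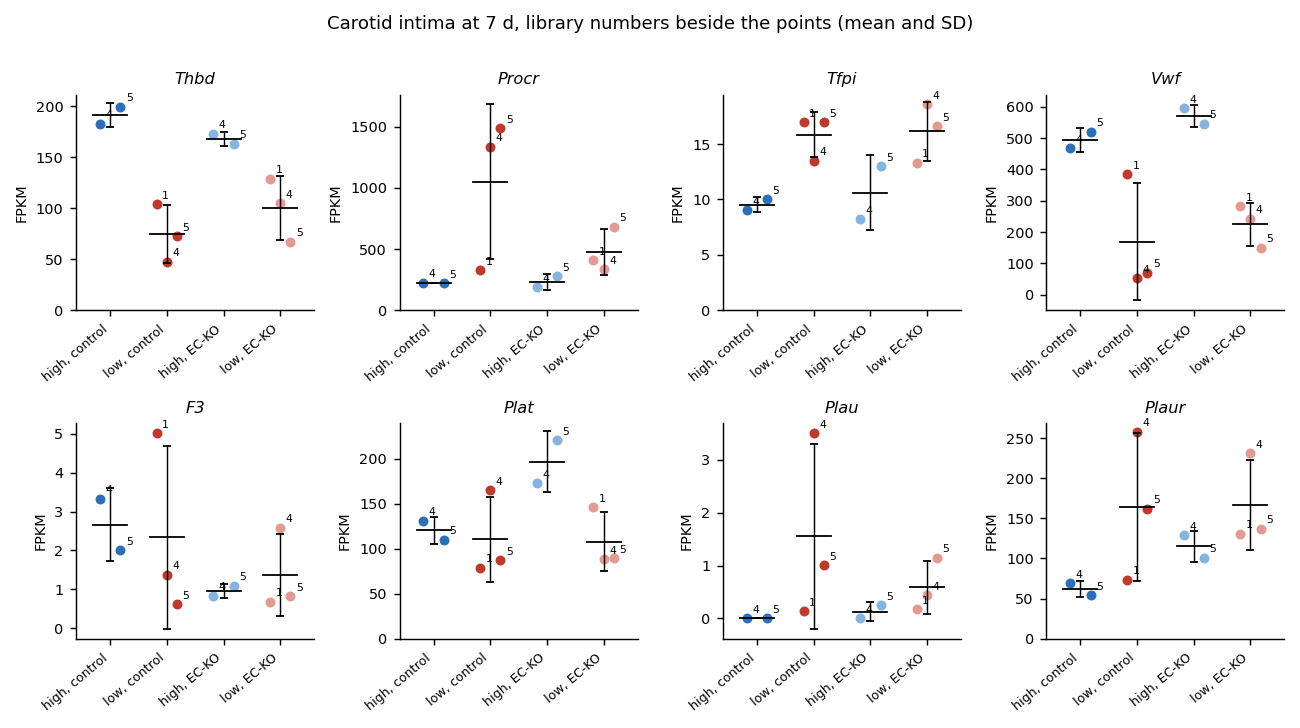
FPKM of the 8 members (vertical axes) in each 7 d library by flow and genotype, with library numbers, mean and SD. Low-flow control library 1 lies apart from libraries 4 and 5 for Procr (328 against 1337 and 1489) and Vwf (385 against 51.8 and 69.6), and the low-flow EC-KO libraries lie between.

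Set directly against each other at low flow, EC-KO and control differed in 0 of 8 members and 0% of 13352 genes by edgeR (880 genes and 1 member, Procr, at an unadjusted p under 0.05; DESeq2 called 13 genes and 0 members). Rbfox2 itself was −2.61 ± 0.58 (adjusted p = 0.692). No marker of the 9 cell type lists was called, but neutrophil markers were 0.00236%, 0.0315% and 0.00212% of counts in control libraries 1, 4 and 5 and 8.21e-04%, 0.00332% and 8.00e-04% in EC-KO libraries 1, 4 and 5, and macrophage markers 0.0327% to 0.171% and 0.1% to 0.182%. The neutrophil genes S100a8 and S100a9 were higher in each control library than in any EC-KO library. At high flow lymphocyte markers were 3.55e-04% to 8.90e-04% in control and 0.0019% to 0.0162% in EC-KO libraries. The part of these cells in the member values was not tested. Procr was −1.14 ± 0.50 (95% interval −2.25 to −0.03, adjusted p = 0.692), Vwf 0.47 ± 0.63 (−0.94 to 1.89, 0.844), Thbd 0.46 ± 0.31 (−0.23 to 1.15, 0.702) and Plaur 0.05 ± 0.41 (−0.87 to 0.96, 0.984). Whether Procr and Vwf were called depended on control library 1, while both kept their direction. Without it Procr was −1.57 (adjusted p = 0.0162) and Vwf 1.90 (adjusted p = 0.0112), with 1476 genes called in all; with libraries 4 and 5 alone Vwf was 1.71 (adjusted p = 0.0354) and Procr −1.48 (adjusted p = 0.0538). At high flow 0 members were called (background 0.00749% of 13352 genes; 293 genes and 0 members at an unadjusted p under 0.05; DESeq2 26 genes and 0 members), with Procr at 0.03 ± 0.60 and Vwf at 0.16 ± 0.78. The flow change differed between genotypes for 0 members and 0% of 13352 genes (538 genes and 0 members at an unadjusted p under 0.05; DESeq2 11 genes and 0 members), the interaction being −1.17 ± 0.78 for Procr and 0.70 ± 0.49 for Thbd (both adjusted p = 0.986). The 5 lists held 0 calls between genotypes at low or high flow and in the interaction. Pros1 was 0.41 ± 0.22, F2r 0.37 ± 0.20 and Serpine2 0.62 ± 0.49 in EC-KO against control at low flow.

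Cultured cells, with 1 library each and so no test, held some members at intimal levels and others far above or below them. F3 stood at 90.0 FPKM in the untreated cell line, 123 after plasma, 66.1 after platelets plus macrophages and 16.7 after all of these, against 0 to 8.14 FPKM in the 35 intimal libraries. Primary cells lay at 1.04 (eGFP), 9.32 (Rbfox2 control) and 7.56 FPKM (EC-KO), the first and last within the intimal range. The eGFP library has 100 bp reads and the other cultures 150 bp reads. Vwf, at 13 to 596 FPKM in the intima, was 0.446 to 0.771 FPKM in the line, 15.3 in eGFP cells and 120.4 and 135 FPKM in the Rbfox2 control and EC-KO cells. Procr was 54.8, 61.4, 55.6 and 97.8 FPKM in the line (untreated, plasma, platelets and macrophages, all 3) and 829 to 1686 FPKM in primary cells, against 181 to 1888 FPKM in the intima.

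Tfpi was higher in the line (28.9 to 42.7 FPKM) and in the Rbfox2 primary cells (46.6 and 39.3) than in any intimal library (highest 18.6). Plaur was 10.8 FPKM in the untreated line, 15.5 with plasma, 17.8 with platelets plus macrophages and 46.3 with all of these, each below the lowest intimal library, 54.5, and primary cells lay at 138 to 338 FPKM. Macrophage markers in these line libraries were 0.00206%, 0.00572%, 0.039% and 0.0303% of counts, and their part in the Plaur values was not tested. Thbd was 21.2 to 31.3 FPKM in the line and 82.4 to 153 in primary cells, and Plau was 0.111 to 0.651 FPKM in the line and at 0.137 to 4.19 in primary cells. Plat stayed at similar levels, at 92.1 to 139 FPKM in the line, 154 to 156 in primary cells and 35.7 to 221 FPKM in the intima. Between the Rbfox2 control and EC-KO primary cells Procr (829 and 849 FPKM), Thbd (147 and 153) and Plat (154 and 156) differed little, with no replicate to set this against.

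**Figure D5:**
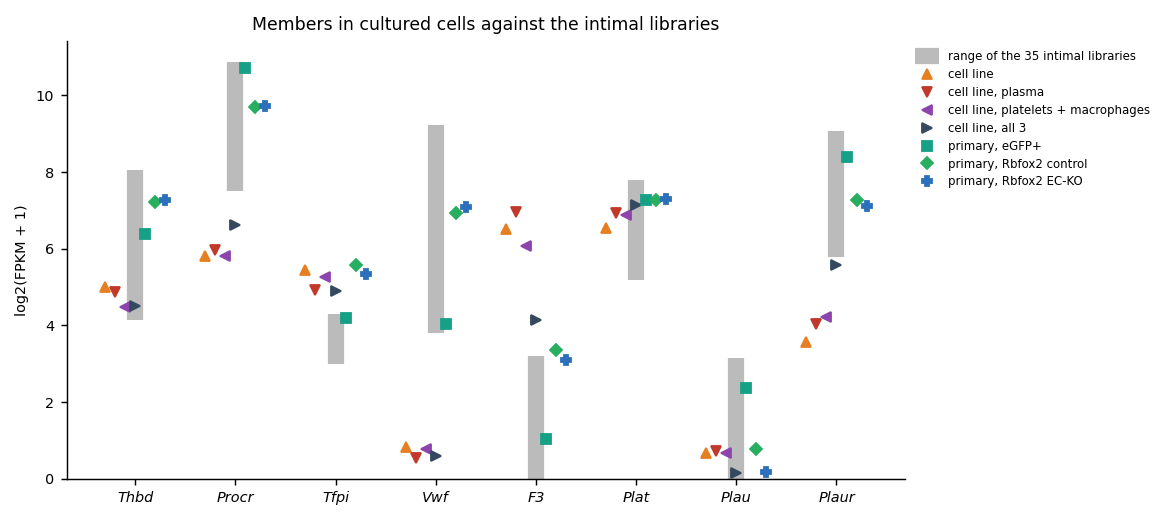
Level of each member as log2(FPKM + 1) (vertical axis) in the 7 culture libraries (symbols), with grey bars for the range of the 35 intimal libraries. F3 in the cell line (16.7 to 123 FPKM) and Tfpi in the cell line and the 2 Rbfox2 primary cultures lie above the grey bars, Tfpi in eGFP cells (17.2) does not, and Vwf (0.446 to 0.771 FPKM) and Procr in the line lie below them.

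Across the 11 intimal groups of 150 bp reads the members fell into patterns that are given as a description. Mean Thbd was highest at high flow after IgG (242 FPKM) and lowest at low flow after PBS liposomes (37.2), and Vwf highest at high flow in EC-KO mice (571) and lowest at low flow after PBS liposomes (65.2). Procr (1289), Tfpi (17.8), Plau (4.95) and Plaur (390.1) were each highest at low flow after PBS liposomes. The lowest means were at high flow after IgG for Procr (184) and Tfpi (9.1), and at high flow in control mice at 7 d for Plau (0) and Plaur (61.6). Plat ran from 84.1 (anti-Gr1) to 197 FPKM (high flow, EC-KO) and F3 from 0.966 (high flow, EC-KO) to 3.81 (anti-Gr1). Of the 10 neighbouring pairs in each order, 8 overlapped in range for Thbd, Procr and Vwf, 9 for Tfpi, Plat and Plaur, and 10 for F3 and Plau, so most neighbours did not differ beyond the spread of their libraries.

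Likeness was measured as Pearson's r of mean log2(FPKM + 1) over the 14 intimal groups with at least 2 libraries, which share controls, runs and read lengths, among 10085 genes. The genes most like Thbd were Ace (0.974), Pi16 (0.970) and Krt80 (0.960). Those most like Procr were Ppa1 (0.972), Dctd (0.971) and Ncl (0.971), and most like Vwf were Chd3 (0.978), Cuedc1 (0.977) and Itpr1 (0.975). For Plau they were Slpi (0.972), Esm1 (0.963) and Ran (0.958), and for Plaur Ly6c2 (0.961), 6430562O15Rik (0.957) and Pfn1 (0.955). The best matches of Tfpi (Ankrd32, 0.940; Asnsd1, 0.933; Fam175a, 0.910), Plat (Chn1, 0.871; Smap1, 0.863; Cbx8, 0.860) and F3 (Dedd, 0.811; Rarres2 and AW209491, 0.791) were weaker.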

How the data were processed

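The authors mapped paired reads to mm9 with STAR 2.5.1b (the methods also name another aligner for the untreated pools), estimated expression with RSEM 1.2.15, and deposited one table of expected counts, of which 5.2% to 19.32% per library were not whole. The gene lengths in that table, also deposited by the authors, gave the FPKM computed here from count, effective length and library total. Counts were rounded and tested with edgeR 4.0.16 (quasi-likelihood, TMM, filterByExpr; R 4.3.3), with Benjamini-Hochberg adjustment over all genes tested and a threshold of 0.05. SE and 95% intervals came from the same fit. Untreated comparisons used the 2 groups alone, treated ones 7 groups and 7 d ones 4 groups in one fit. The fit was tested on simulated data. Alternatives were DESeq2 1.42.0, other scalings, no filter, each library left out, 2 or 3 groups in the fit, added 100 bp libraries and a replicate block.

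Replicates are RNA pools, and p-values measure the spread between them. In the table each untreated pool has its own letter, renamed a, b and c within each group here, and 7 d libraries the numbers 1, 4 and 5. At low flow and 7 d, same-numbered EC-KO and control libraries deviated together (correlations 0.489, 0.17 and 0.272 for numbers 1, 4 and 5). Only those numbered 1 also shared a run. The genotype values given come from a fit without pairs, and the fit with the number as a block, an alternative, changed no call there. One row without a gene name was left out, and 162 value columns were not used. Named genes were the 8 members, up to 3 called genes per list, direction and comparison, the partners Serpine2, F2r and Pros1, and the 3 genes most like each member among those with a group mean of at least 5 FPKM. Members and lists were chosen with earlier results of these data known. Some genes of the lists are not reported here.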

Additional observations from a re-analysis of the deposited data

Results flagged for a closer look

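In the cultures, which enter no test, 2 members lay above the highest intimal library of 150 bp reads. F3 did so in the untreated cell line (90.0 FPKM), after plasma (123), after platelets plus macrophages (66.1) and after all of these (16.7), and in primary Rbfox2 control (9.32) and EC-KO cells (7.56). Tfpi, whose product blocks the step that F3 starts, did so at 42.7 FPKM in the untreated line, 29.4 after plasma, 37.1 after platelets plus macrophages and 28.9 after all of these, and at 46.6 and 39.3 FPKM in the primary Rbfox2 control and EC-KO cells. Each value is 1 library.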

How the results depend on the processing

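Of 1172 member results under alternatives 1092 kept their side of the threshold, 31 lost a call, 48 gained one, and 1 reversed, Tfpi against high flow in untreated mice (−0.03 with library totals); 59 more changed sign while past the threshold in neither fit. The causes were not tested. Genes called with DESeq2 were 91 for high flow against sham, 3690 for anti-GPIba, 171 for anti-Gr1, 462 for clodronate, 13 and 26 for EC-KO against control at low and high flow, 2185 and 939 for flow at 7 d in control and EC-KO mice, and 11 for the interaction. Without the filter they were 63 for high flow against sham, 92 for clodronate, and 654 and 221 for flow at 7 d in control and EC-KO mice. With 2 groups alone they were 4449 for anti-GPIba, 225 for anti-Gr1, 0 for clodronate, and 3 and 858 for flow at 7 d in control and EC-KO mice. With library totals they were 6 for clodronate and 0 for EC-KO at high flow, and with the 100 bp libraries added 199 for clodronate. With libraries 4 and 5 alone they were 374 for EC-KO at low flow, and 3840 and 1100 for flow in control and EC-KO mice. With the replicate number as a block they were 64 for clodronate, 4 for EC-KO at high flow, and 2940 and 1317 for flow at 7 d in control and EC-KO mice; in the comparisons with 2 shared numbers, which the sources used here do not tie to the same mice, same-numbered libraries correlated at −0.068 to 0.416. For EC-KO against control at low flow, where same-numbered libraries deviated together, the block changed no call. The block moved no other count of genes by over 1.5 times. Fits with libraries 4 and 5 alone were chosen after seeing the data. Members called were 4 for anti-GPIba with DESeq2, without the filter, with 2 groups alone and with the block; 1 for anti-Gr1 and 1 for clodronate with DESeq2; 1 for EC-KO at low flow with libraries 4 and 5 alone; 4 with DESeq2, 1 without the filter and 5 each with the block and with libraries 4 and 5 alone for flow in control mice; and 1 each with 2 groups alone and with the block and 2 with libraries 4 and 5 alone for flow in EC-KO mice. Leaving out 1 library, the genes and members called ranged from 4151 to 5411 and 5 to 6 for low against high flow, 2513 to 4757 and 3 to 7 for low flow against sham, 0 to 78 and 0 to 0 for high flow against sham, 1 to 89 and 0 to 0 for anti-GPIba, 0 to 0 and 0 to 0 for anti-Gr1, 0 to 937 and 0 to 0 for clodronate, 2141 to 4231 and 2 to 5 for flow after IgG, 1482 to 3839 and 0 to 4 for flow after PBS liposomes, 0 to 1476 and 0 to 2 for EC-KO at low flow, 0 to 0 and 0 to 0 for EC-KO at high flow, 3 to 3897 and 0 to 5 for flow in control mice at 7 d, 1 to 15 and 0 to 0 for flow in EC-KO mice, and 0 to 7 and 0 to 0 for the interaction. For the untreated set alone, no paired analysis was possible because its columns carry pool letters that could not be matched to the replicate numbers in the sample titles. The counts used for low-flow EC-KO library 4 and control library 5 at 7 d came from repeat sequencing of the same library. Other counts from a second sequencing run, alone or summed, were not used, since those columns could not be matched to single samples. Plau and F3, with few counts in the untreated set, are limited by depth.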
